A study of Mus musculus with 21 samples.

Results

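The genes described here are the SIX-family and EYA-family genes Six2, Six4, Six5, Eya1, Eya2, Eya3 and Eya4. These 7 genes were named by symbol, out of 19304 protein-coding genes of at least 2 kb in the RefSeq annotation of mouse assembly GRCm38. The assay was chromatin immunoprecipitation sequencing (ChIP-seq) of H3K36me3, trimethylation of lysine 36 of histone H3, in C2C12, an established line of mouse myoblasts. Wild-type C2C12 cells had 2 libraries in each of 5 conditions, namely day 0, day 1 and day 5 in control medium (CTL in the labels), and day 1 and day 5 under methionine restriction (MR). The labels also name a pair of KO lines, Setd2 KO in the design text, each with 1 library per condition. How the gene was disrupted, whether a line is a single clone, and whether the wild-type replicates came from separate cultures are not given in the sources used here, so p-values measure the spread between these libraries only. All groups share the C2C12 background. SETD2 protein was not measured here.

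SIX-family proteins are homeodomain transcription factors that bind the MEF3 element in the promoters of muscle genes, among them Myog. EYA proteins do not bind DNA themselves; they join SIX-family proteins as co-activators and carry a phosphatase domain. The SIX-EYA complex acts with PAX and DACH factors upstream of the myogenic regulators in muscle precursors. H3K36me3 is laid by SETD2 as it travels with elongating RNA polymerase, so the mark lies over the bodies of transcribed genes and usually thickens toward the 3′ end.

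The value reported for a gene is its cover, the percent of its annotated body that lay inside the authors' peaks, and a difference between covers is given in percentage points. A peak list records where the mark was called, not how much of it there was. In these bulk samples fewer cells with the mark and less mark per cell cannot be told apart. Wild-type lists held 63423 to 87398 peaks over 110 to 183 Mb (restricted 110 to 134 Mb, others 140 to 183 Mb). KO line 1 lists held 791 to 64530 peaks over 0.307 to 74.1 Mb, and KO line 2 lists 127 to 13880 peaks over 0.00821 to 7.13 Mb. The length of the lists thus moves with restriction and with genotype; results from lists shortened to 1 common length are in the closing section. Of 4 myoblast markers all 4 had cover in wild-type cells, with a summed cover of 103 to 251 points per library (234 to 251 unrestricted, 103 to 117 restricted). All 5 markers of differentiated muscle had cover at day 1 and day 5 control, with sums of 202 to 232 and 428 to 449 points. They summed to 39.5 to 43.0 points at day 0, 1.79 to 19.8 at restricted day 1 and 87.4 to 94.2 at restricted day 5. Both lists thus move with restriction, and their part in the results was not tested. None of the endothelial, haematopoietic or adipocyte markers in the table had any in wild-type libraries (Pecam1, Cdh5, Kdr, Ptprc, Spi1, Adipoq, Plin1 and Fabp4). In KO libraries the endothelial markers summed to at most 1.30 points and the haematopoietic ones to at most 2.87, while the adipocyte ones stayed at 0. Of 3 neuronal markers Snap25 was at 0, Rbfox3 was at 0.0678% in 1 wild-type library and 0 in the others, and Tubb3 was covered in all of them, at 23.6% to 64.3%, with group means of 37.3% and 29.6% under restriction and 43.6% to 64.2% otherwise; its part in the results was not tested.

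The promoter windows of the covered members are printed first, because the mark stopped short of them. Each window is 300 bases, from 250 before to 50 after an annotated start, as given by RefSeq on GRCm38.p6. The table matched 5 of the 7 members with 7 windows in all; Eya1 and Eya2 had none. In all 20 libraries no peak lay over any of the 7 windows. The windows were searched on both strands for the MEF3 core TCAGGTT and for the E-box CANNTG, the element bound by MYOD1 and related factors, and matches are in capitals. The MEF3 core occurs in 4.07% of 32851 promoter windows of this length and the E-box in 72.31%. The core does not itself hold an E-box, and no matches overlapped in the windows printed. The Six4 window lies at chr12:73113196-73113495 on the minus strand, that of Eya3 at chr4:132638796-132639095 on the plus strand and that of Eya4 at chr10:23349841-23350140 on the minus strand.
Six4: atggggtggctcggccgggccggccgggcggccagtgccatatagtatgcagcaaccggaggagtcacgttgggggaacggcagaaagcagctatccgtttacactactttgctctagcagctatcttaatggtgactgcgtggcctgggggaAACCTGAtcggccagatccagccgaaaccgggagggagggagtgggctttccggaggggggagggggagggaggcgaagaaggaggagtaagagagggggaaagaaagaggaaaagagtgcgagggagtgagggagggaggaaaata
Eya3: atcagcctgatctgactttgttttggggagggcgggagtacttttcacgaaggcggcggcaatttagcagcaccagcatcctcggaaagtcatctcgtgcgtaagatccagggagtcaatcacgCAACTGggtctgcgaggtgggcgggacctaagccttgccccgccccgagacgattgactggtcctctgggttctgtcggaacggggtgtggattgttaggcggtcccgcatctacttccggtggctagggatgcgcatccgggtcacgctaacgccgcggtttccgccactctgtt
Eya4: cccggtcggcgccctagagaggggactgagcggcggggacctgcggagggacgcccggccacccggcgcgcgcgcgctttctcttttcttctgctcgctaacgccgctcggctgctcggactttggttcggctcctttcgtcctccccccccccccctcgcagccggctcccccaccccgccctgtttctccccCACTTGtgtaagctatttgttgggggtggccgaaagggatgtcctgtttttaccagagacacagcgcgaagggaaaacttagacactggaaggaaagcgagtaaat
The Six4 window holds 1 match to the MEF3 core, read on the opposite strand as AACCTGA. The Eya3 and Eya4 windows each hold 1 E-box, CAACTG and CACTTG, and no MEF3 core. A second Six4 window and those of Six2 and Six5 hold neither. A match describes the letters and is not a binding site, and binding was not measured.

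Six4, which encodes a SIX-family factor of embryonic muscle precursors, had the highest mean cover of the members over the 10 wild-type libraries, though Eya3 exceeded it in all 4 restricted ones. Its body spans chr12:73099609-73114031 on the minus strand, 14.4 kb, and its first 1847 bases are shared with Mnat1. Cover was 81.2% and 82.6% at day 0, 78.5% and 84.3% at day 1 control, and 80.5% and 74.3% at day 5 control. Restricted libraries had 46.4% and 29.9% at day 1 and 42.6% and 54.2% at day 5. All 4 restricted libraries were below all 6 libraries of control medium and day 0. A gap between both restricted and both control libraries on each day, with less cover, was seen in 49.1% of the 9514 genes tested below. The mean over the 10 wild-type libraries, 65.5%, exceeded that of 88.7% of all genes. The peaks of Six4 were also high in their own lists. Its tallest peak, by the authors' fold enrichment, ranked above 95.2% to 99.4% of peaks in the 6 unrestricted lists and above 79.2% to 93.5% in the 4 restricted lists.

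Six5 and Six2 had next to no cover. Six5, a SIX-family factor of the myotonic dystrophy locus, spans chr7:19094544-19098549 on the plus strand, 4.01 kb. It was at 0 in 19 of 20 libraries. The exception was replicate 1 of restricted day 1, at 14.1%, from 1 peak of 0.564 kb whose fold of 2.43 exceeded only 12.2% of the peaks in that list. The upstream neighbour Dmpk, a protein kinase gene whose body ends 0.722 kb before Six5 begins, had mean covers of 84.1%, 82.5% and 81.7% at days 0, 1 and 5 in unrestricted wild-type cells. The nearest upstream peak ended 0.672 to 0.777 kb before Six5 in those 6 libraries and 2.20 to 3.22 kb before it in the 4 restricted ones. The mark over Dmpk thus ended near its gene end in the unrestricted libraries and farther upstream in the restricted ones. Six2, a SIX-family factor known for kidney progenitors, spans chr17:85662736-85688254 on the minus strand and was at 0 in all 20 libraries.

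Eya3, the broadly expressed EYA phosphatase also known from the DNA damage response, was the widely covered EYA gene. It spans chr4:132639025-132724765 on the plus strand, 85.7 kb. Cover was 71.5% and 66.1% at day 0, 54.5% and 58.1% at day 1 control, and 74.4% and 71.4% at day 5 control. Restricted libraries gave 58.4% and 46.5% at day 1 and 61.9% and 62.6% at day 5. Restricted and control libraries overlapped at day 1 and did not at day 5, where 65.4% of tested genes had such a gap with less cover. The wild-type mean of 62.5% exceeded that of 86.9% of all genes, and at least 39.8 kb of the gene was inside peaks in each wild-type library.

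Eya1, the EYA gene of branchio-oto-renal syndrome and of early muscle and ear development, was covered mainly at day 0. It spans chr1:14168953-14311035, 142 kb. Cover was 21.7% and 11.8% at day 0, from 35 and 28 peaks. It was 2.55% and 3.83% at day 1 control and 0.206% and 0.320% at day 5 control, with 1 peak per library, at different places in the body. Restricted libraries were higher than their controls on both days, at 8.09% and 7.52% at day 1 and at 3.40% and 2.58% at day 5. Day 0 was the highest group and day 5 control the lowest. Day 0 and day 1 control did not overlap, and such a gap with less cover was seen in 49.3% of tested genes.

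Eya4, linked to hearing loss and heart muscle disease, was covered most at day 5 in control medium. It spans chr10:23102962-23350838 on the minus strand, 248 kb. Cover was 9.39% and 5.97% at day 0, 3.31% and 4.45% at day 1 control, and 14.4% and 11.1% at day 5 control. Restricted libraries gave 5.59% and 3.14% at day 1 and 8.14% and 9.34% at day 5. Day 5 control was above every other wild-type library; a gap over day 1 control with more cover was seen in 47.8% of tested genes. Eya2, at chr2:165595028-165771727 (177 kb) and known as a SIX-dependent co-activator in muscle precursors, had no peak in any of the 20 libraries.

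**Figure D1:**
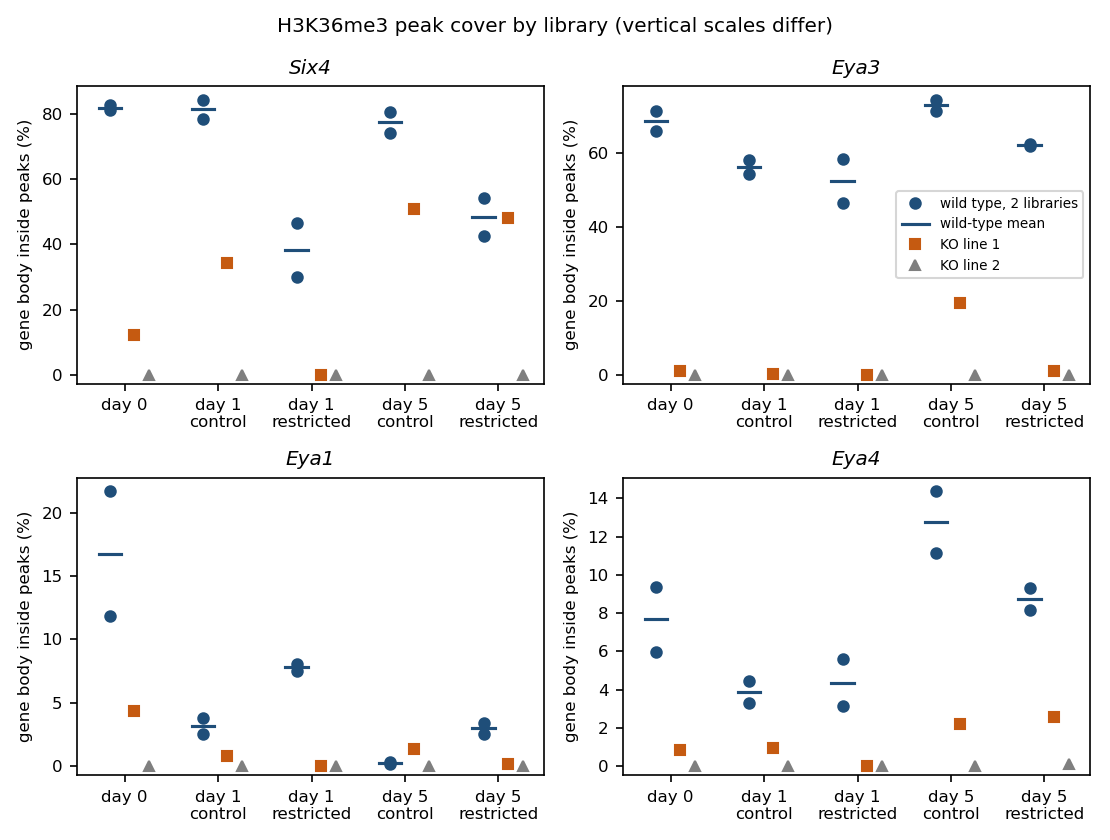
Percent of the gene body inside H3K36me3 peaks (vertical axis, scales differ) in each library of Six4, Eya3, Eya1 and Eya4 by condition; circles are the 2 wild-type libraries with their mean as a bar, squares KO line 1 and triangles KO line 2. Six4 falls from 78.5% and 84.3% to 46.4% and 29.9% with restriction at day 1, and KO line 2 is at or near 0 throughout.

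Cover was not spread evenly along these bodies. Each body was divided into 10 equal bins, numbered from the 5′ end. Those of Eya1, whose strand is not given in the sources used here, were numbered from the lower-numbered end. Bin 1 of Six4 was at 0 in all 20 libraries, and its bins 8 and 9 were at 100% in all 10 wild-type libraries. In the 6 unrestricted libraries the first peak base lay 1.76 to 3.71 kb inside the annotated start. In the 4 restricted ones it lay 4.47 to 6.96 kb inside. Bins 1 to 5 of Six4 were accordingly at 48.5% to 69.9% in unrestricted libraries and at 3.47% to 15.8% in restricted ones, while its bins 6 to 10 were at 93.8% to 100% and at 56.4% to 92.7%. The groups stood apart in both stretches. Cover was also missing at the 3′ end at restricted day 1, where bin 10 was at 24.6% and 9.45% beside 100% in both controls; at restricted day 5 it was at 90.4% and 89.8%. Bins 8 and 9 were thus the stretch that kept full cover. The stretch shared with Mnat1 lies at the 5′ end, ahead of nearly all of this cover. Without shared bases the restriction difference of Six4 was -49.59 points at day 1 and -33.26 at day 5.

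Eya3 had little cover in bin 2, with group means of 0% to 9.26%, and much from bin 4 on. Its bins 1 to 5 were at 25.4% to 63.5% and its bins 6 to 10 at 67.5% to 85.4% over the wild-type libraries. Cover of Eya4 was gathered in bins 8 to 10. Bin 9, the most covered, averaged 42.8% at day 0, 18.6% at day 1 control and 53.7% at day 5 control, and bins 1 to 5 stayed between 0% and 5.27% in each wild-type library. At day 5 control a low 5′ cover of Eya4 appeared as well, with 9.47% in bin 1. Eya1 differed from these in having peaks scattered over the whole body at day 0, with group means of 5.04% to 30.4% per bin. Replicate 1 had 4.22% to 44.3% of each bin, and replicate 2 had none of bin 4 and 5.22% to 25.8% of the others. At day 5 control the single peaks lay in bin 1 in replicate 1 and in bin 5 in replicate 2.

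**Figure D2:**
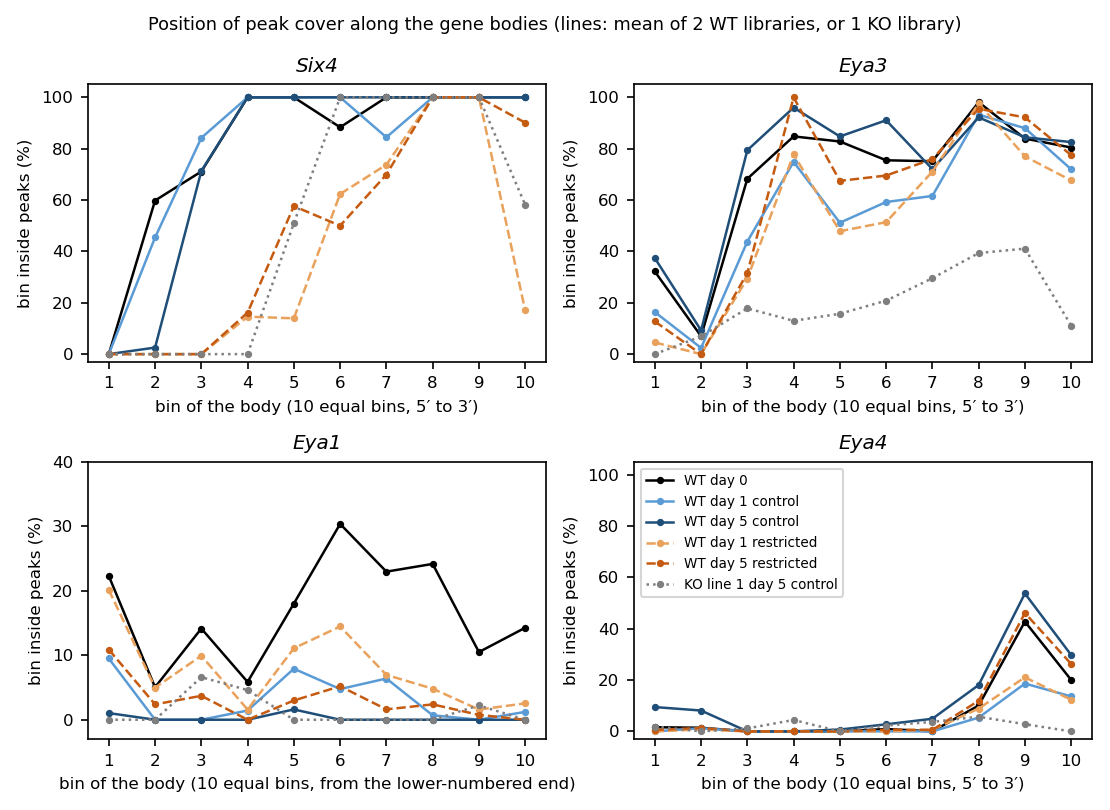
Percent of each of 10 equal bins of the gene body inside peaks (vertical axis) by position (horizontal axis, 5′ to 3′, or from the lower-numbered end for Eya1), as the mean of 2 wild-type libraries per condition or the 1 library of KO line 1 at day 5 control. In Six4 the restricted lines (dashed) start farther into the body, and in Eya4 cover peaks in bin 9 at 53.7% at day 5 control.

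Methionine restriction went with less cover of Six4 on both days. The test was limma with Benjamini-Hochberg adjustment over the 9514 genes whose mean cover over the 10 wild-type libraries was at least 5%. That filter kept Six4, Eya1, Eya3 and Eya4 and left Six2, Six5 and Eya2 without a test. At day 1, cover of Six4 was lower in restricted cells by -43.24 ± 6.13 points (SE; adjusted p = 0.000982). On day 5 the difference was -29.00 ± 6.13 points (adjusted p = 0.00556). The median difference of all tested genes was -7.99 points on day 1 and -9.16 on day 5, and 5.16% and 14.97% of them had a lower value than Six4. The summed cover of the differentiated muscle markers given above was also lower in restricted than in control libraries on both days. After centring of each library on its own median the Six4 difference was -28.06 points at day 1 (adjusted p = 0.00197) and -12.33 points at day 5, where it no longer passed (adjusted p = 0.0565). It also missed at day 5 without replicate 1 of day 5 control (-25.88 points, adjusted p = 0.0501).

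Of 4 tested members limma called 1 with less cover and 0 with more on each day; at an unadjusted p under 0.05 there were 1 with less at day 1 and 2 at day 5, and 0 with more. Among all tested genes 38.3% were called at day 1 (3422 with less and 226 with more cover) and 45.8% at day 5 (3945 with less and 411 with more). With so large a background, 1 member of 4 is not a result about the family. The EYA genes did not pass. In simulated data for the day 5 comparison, 200 of 9514 genes, all of middling cover, were changed at a time. Changes of 20 points were called in 0%, of 30 points in 60% and of 50 points in 96.5%. Far more genes were called in the data, where Tle1 passed at 12.37 points, and Eya1 and Eya4 have low cover. These shares therefore do not carry over to the members. A miss does not show that there was no difference. Eya3 differed by -3.84 ± 4.58 points at day 1 (adjusted p = 0.547) and -10.67 ± 4.58 points at day 5 (adjusted p = 0.0905). Eya1 differed by 4.61 ± 2.84 points at day 1 (adjusted p = 0.236) and 2.73 ± 2.84 points at day 5 (adjusted p = 0.468). It was higher in both restricted libraries than in both controls on each day, as were 5.46% of tested genes. Eya4 differed by 0.48 ± 2.04 points at day 1 (adjusted p = 0.877) and -4.01 ± 2.04 points at day 5 (adjusted p = 0.143). The sign of Eya3 turned positive on both days under centring, at 11.35 and 6.0 points, and that of Eya4 at day 5 at 12.67 points. Eya1 was then at 19.8 and 19.4 points, and limma called 3 members with more cover at day 1 and 2 at day 5, beside 3518 and 3757 of all 9514 tested genes with more cover under the same centring.

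The restriction difference was not shown to change between the days for any tested member. For Six4 the difference of differences, day 5 less day 1, was 14.24 ± 8.68 points (adjusted p = 0.417), and for Eya3, Eya4 and Eya1 it was -6.83, -4.49 and -1.89 points (adjusted p from 0.443 to 0.843). By limma 0 of 4 members passed, also 0 at an unadjusted p under 0.05, against 5.2% of all tested genes with the adjusted p.

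**Figure D3:**
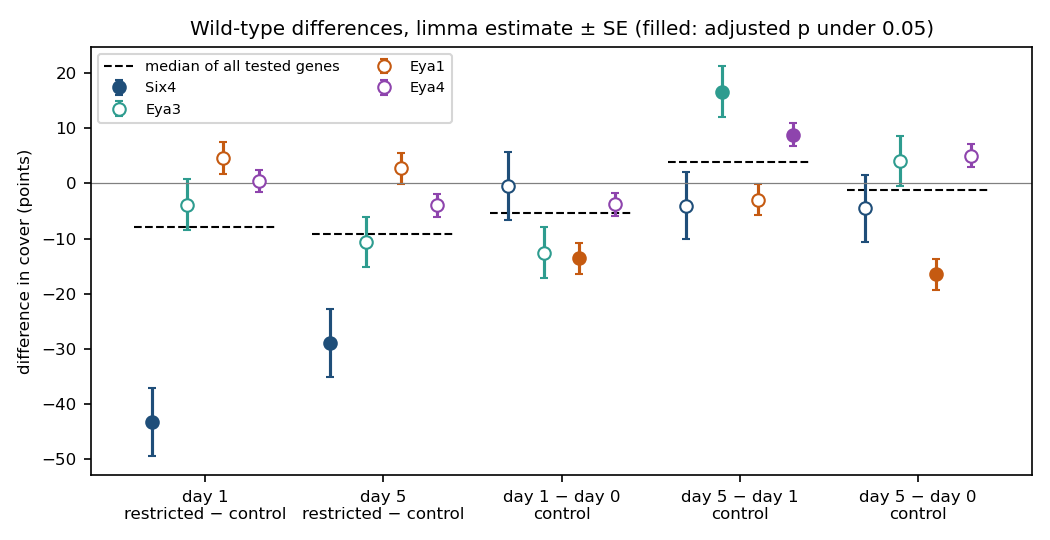
Differences in cover in percentage points (vertical axis), limma estimate ± SE over the 10 wild-type libraries, for Six4, Eya3, Eya1 and Eya4 in 5 comparisons; filled points have an adjusted p under 0.05 and the dashed line is the median of all 9514 tested genes. Six4 lies at -43.24 and -29.00 points for restriction, beside medians of -7.99 and -9.16 points.

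Over time in control medium Eya3 and Eya4 gained cover from day 1 to day 5, and Eya1 had less cover at days 1 and 5 than at day 0. Whether the genes differ from each other was not tested. Eya1 lost cover from day 0 to day 1, by -13.57 ± 2.84 points (adjusted p = 0.0302), and stood -16.49 ± 2.84 points lower at day 5 than at day 0 (adjusted p = 0.00302). From day 1 to day 5 its difference was -2.93 points (adjusted p = 0.510). Eya1 entered the test only through day 0, since its mean cover is 6.20% with and 3.56% without the day 0 libraries, so a fall from day 0 is partly built into its selection. With no filter on mean cover the adjusted p was 0.0394 for day 1 and 0.00481 for day 5. With centring the difference from day 0 to day 1 was -5.09 points and did not pass (adjusted p = 0.325). Eya3 gained 16.64 ± 4.58 points from day 1 to day 5 (adjusted p = 0.0325) and Eya4 gained 8.86 ± 2.04 points (adjusted p = 0.0150). Neither passed from day 0 to day 1, at -12.54 points for Eya3 (adjusted p = 0.137; 0.733 points with shortened lists) and -3.80 points for Eya4 (adjusted p = 0.288; 4.68 points with centring). Nor did either pass over the whole course, at 4.10 points (adjusted p = 0.574) and 5.06 points (adjusted p = 0.104). Six4 passed in none of these steps, with differences of -0.52, -4.02 and -4.54 points.

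From day 1 to day 5 this made 2 of 4 tested members called with more cover, against 17.1% of all tested genes, and 0 with less, against 5.95%. Without Eya1, which day 0 alone carried past the filter, 0 of 3 members were called from day 0 to day 1 or from day 0 to day 5. Over all tested genes 5.67% and 15.6% were called with less cover in these comparisons, and 0.967% and 12.2% with more. The whole-course comparison shares its libraries with the steps. The Eya1 loss by day 1 was the least secure, since it passed in 5 of 15 alternative settings. Without replicate 1 of day 0 it was -8.65 points (adjusted p = 0.0365), and without any 1 of the 8 wild-type libraries of day 1 or day 5 the adjusted p was 0.0519 to 0.153. The Eya1 difference over the whole course passed in 14 of 15 settings. Nearly all of these settings keep its selection through day 0, so the passes say little about stability. The gain of Eya3 passed in 9 of 17, missing without either replicate of day 1 control, day 5 control or restricted day 5 (adjusted p 0.0582 to 0.165), with the stricter q (22.93 points, adjusted p = 0.0835), and with lists shortened to 1 common length (6.14 points, adjusted p = 0.399). The lists of day 1 control were 140 to 150 Mb long and those of day 5 control 171 to 183 Mb. The gain of Eya4 passed in 11 of 15, missing without either replicate of day 1 control or replicate 1 of day 5 control (adjusted p 0.0568 to 0.0951), and centring brought it to 2.76 points (adjusted p = 0.409).

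Every tested member had less cover in KO than in wild-type libraries on average, and KO line 2 had almost none. An exact two-sided permutation test of genotype within condition used all 20 libraries, and its smallest possible p is 0.000257. The 10 KO libraries come from 2 lines, each sampled in all 5 conditions, and the test treats them as independent. Its p-values thus measure the spread between libraries and not between lines. Mean cover of Six4 was 50.9 points higher in wild-type than in KO libraries (p = 0.000514, adjusted p = 0.000668 over all tested genes, exact permutation test). For Eya3 the difference was 60.3 points (adjusted p = 0.000341, exact permutation test). Eya4 and Eya1 were 6.81 and 5.53 points higher in wild-type libraries; these alone carried both genes past the filter, with means of 4.08% and 3.43% over all 20 libraries, so no p is given for them. Of all tested genes 96.6% were called, with a median difference of 39.75 points. The filter asks for wild-type cover, so lower KO cover is partly built into the selection and nothing is read from the count. For Eya3 and Eya4 both KO libraries were below both wild-type libraries in all 5 conditions, as for 75.3% of tested genes, and for Six4 and Eya1 in 4 of 5. Setd2 itself averaged 65.2% in wild-type libraries, 6.39% in KO line 1 and 0% in KO line 2, which checks the mark over that gene and not its deletion.

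The lines were not alike. KO line 2 was at 0 for every member in every condition, except 0.104% of Eya4 at restricted day 5, from 1 peak of 0.258 kb. In KO line 1, Six4 had 12.3% at day 0, 34.4% at day 1 control, 0% at restricted day 1, 50.9% at day 5 control and 48.1% at restricted day 5. Each of these had 1 library, so no test was made. The list of restricted day 1 was nearly empty, with 791 peaks over 0.307 Mb and cover in 1.70% of all genes. At restricted day 5 the library of line 1 lay within the wild-type range of 42.6% to 54.2%, at 99.4% of the wild-type mean. In that library the median tested gene kept 0.892% of its wild-type mean, and 9.63% of tested genes kept at least as large a share as Six4. At day 1 control Six4 kept 42.2% of its wild-type mean, a share that 4.56% of tested genes reached, and at day 5 control it kept 65.8%, which 21.8% reached.

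The Six4 peaks of KO line 1 lay largely inside wild-type peaks. Of its covered bases, 100% were inside peaks of a wild-type library of the same condition at day 0, day 1 control and day 5 control, and 88.3% at restricted day 5. The union of the wild-type peaks took up 85.6%, 84.8%, 80.5% and 58.3% of the body in these conditions, so most places in the body would fall inside it. Cover of line 1 sat toward the 3′ end at day 5 control, at 91.6% in bins 6 to 10 against 10.2% in bins 1 to 5. In the other covered members line 1 was low. Eya3 had 19.5% at day 5 control and 0% to 1.12% elsewhere, Eya1 0% to 4.33% and Eya4 0% to 2.59%. Eya1 at day 5 control was the single case of a KO library above both wild-type ones among the covered members, 1.34% against 0.206% and 0.320%. In that KO library 10.9% of tested genes were at or above the lower wild-type library. Of those Eya1 bases 0% were inside wild-type peaks, which took up 0.526% of the body, so few places would fall inside them.

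The partners of these factors were taken from a list of 10, the PAX, DACH and TLE genes with Sobp and Mcrs1. Of these, 4 were tested, namely Mcrs1, which encodes a chromatin complex subunit, and the Groucho family co-repressors Tle1, Tle2 and Tle3. Pax3, Dach1, Dach2 and Tle4 were at 0 in all wild-type libraries. Restriction went with less cover of 2 of 4 at day 1, Tle2 by -46.4 ± 4.64 points (adjusted p = 0.000174) and Tle3 by -33.3 ± 4.27 points (adjusted p = 0.000594). Over all 9514 tested genes 3422 were called with less cover that day and 3945 at day 5, so 2 of 4 is near the background. At day 5 it went with less of 2, Tle3 (-22.8 points, adjusted p = 0.00305) and Mcrs1 (-17.8 points, adjusted p = 0.00620), and with more of 1, Tle1 (12.4 points, adjusted p = 0.0332). The median over the 4 was -21.4 points on day 1 and -13.3 on day 5, beside -7.99 and -9.16 points for all tested genes. With centring limma called Tle2 and Tle3 with less and Tle1 with more at day 1, and at day 5 only Tle1, with more (29.04 points), where 1245 and 1395 of all tested genes were called with less cover on the 2 days and 3518 and 3757 with more; Mcrs1 turned positive at day 1, as did Tle1, and Tle2 at day 5. Over time 1 of 4 partners gained from day 0 to day 1, Tle2 by 24.5 points, where 0.967% of all tested genes were called with more cover. From day 1 to day 5 there were 2 of 4 with less, against 5.95%, Tle1 by -16.6 points and Tle2 by -20.2 points. Tle1 was also lower at day 5 than at day 0, by -24.2 points, 1 of 4 against 15.6%.

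Muscle genes known as SIX-factor targets were a list of 8, of which 6 were tested. Restriction went with less cover of 4 of 6 at day 1 and of 6 of 6 at day 5, with median differences of -42.95 and -61.1 points. Over all 9514 tested genes 3422 and 3945 were called with less cover, and the medians were -7.99 and -9.16 points. With centring these were 3 of 6 and 5 of 6, with medians of -27.8 and -44.5 points, beside 1245 and 1395 of all 9514 tested genes with less cover, and Ckm turned positive at day 1. Myog, the myogenic regulator whose promoter carries a MEF3 element, differed by -71.89 ± 3.16 points at day 1 and -92.59 ± 3.16 points at day 5. Myod1, its fellow regulator, differed by -58.95 and -72.6 points. Both genes were at 0 in all restricted wild-type libraries, so these differences equal the mean cover of the controls. Ckm, muscle creatine kinase, differed by -1.76 points at day 1 (limma adjusted p = 0.827) and -62.3 points at day 5. Ckm entered the test only through day 5 control, with a mean cover of 15.8% with and 2.32% without those libraries, so its difference at day 5 is partly built into its selection. Without Ckm 4 of 5 targets were called with less cover at day 1 and 5 of 5 at day 5. In control medium Myog gained 71.89 points from day 0 to day 1, while Six4, at 81.2% and 82.6% on day 0, was already covered. Without Ckm the list gained in 1 of 5 genes from day 0 to day 1, against 0.967% of all tested genes, in 1 of 5 from day 1 to day 5, against 17.1%, and in 2 of 5 from day 0 to day 5, against 12.2%; Ckm was called as well in the comparisons with day 5. The list lost in 0 at each step by limma, also at an unadjusted p under 0.05. Any link between the cover of Six4 and of these genes was not tested.

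**Figure D4:**
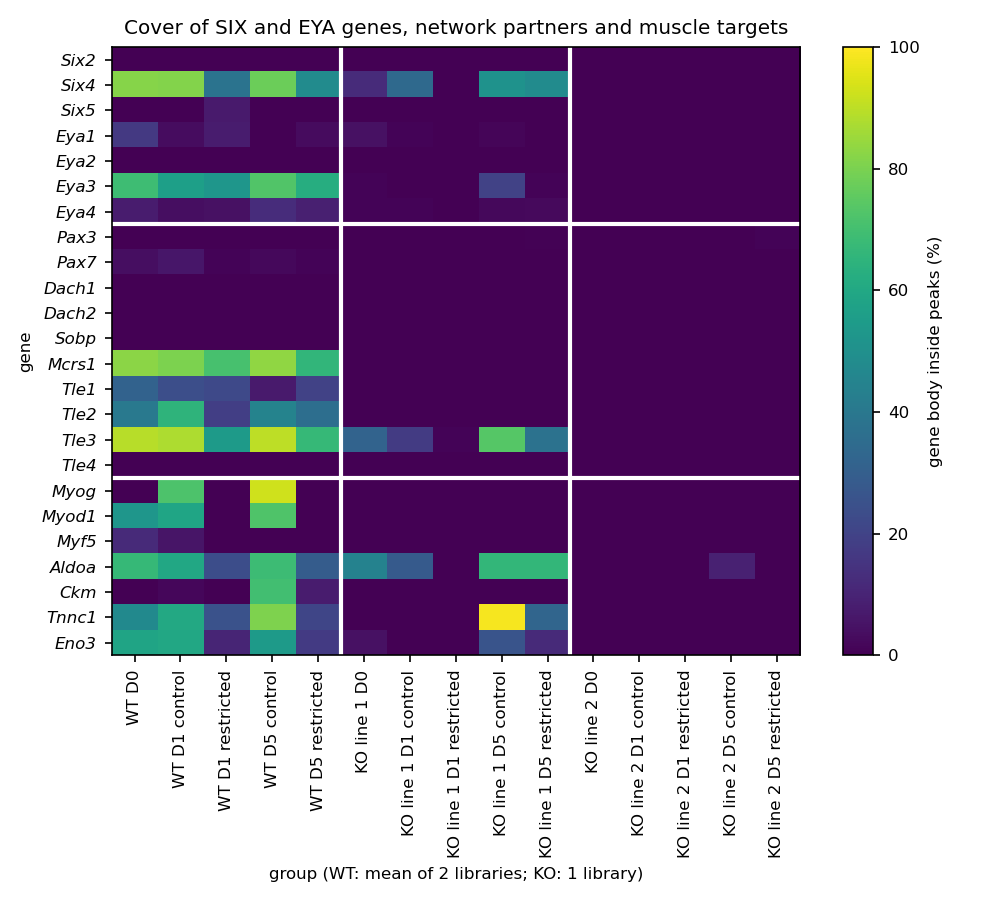
Mean cover in percent (colour, 0 to 100) of the members, network partners and muscle targets (rows, separated by white lines) in each group (columns; wild type 2 libraries, KO lines 1 library). Six4 and Eya3 are the widely covered members, with wild-type means of 65.5% and 62.5%, and Six2 and Eya2 are at 0 throughout.

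The members did not share a single pattern over the 10 wild-type libraries. As a description, Pearson's r of cover was 0.882 between Eya3 and Eya4, 0.596 between Six4 and Eya3, 0.277 between Six4 and Eya4, 0.108 between Six4 and Eya1, 0.0948 between Eya1 and Eya3, and -0.173 between Eya1 and Eya4. These points share libraries and their list lengths. Among all tested genes the 3 most like Six4 were Efemp2, Acadvl and Setd1b (r = 0.995, 0.994 and 0.994). Those most like Eya1 were Fam185a, Gnb4 and Gli3 (0.989, 0.975 and 0.964), those most like Eya3 were Ep400, Aftph and Cfdp1 (0.983, 0.973 and 0.969), and those most like Eya4 were Tbccd1, Plekhh2 and Ahr (0.988, 0.988 and 0.985). Efemp2, for one, had group means of 72.9%, 74.4% and 71.7% in the unrestricted groups and 36.2% and 44.5% in the restricted ones.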

How the data were processed

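H3K36me3 peaks of 20 C2C12 libraries were used; the input was not analysed here. The build is GRCm38, per the submitters' processing notes; peak caller, control and read filters are not given in the sources used here. The authors deposited 1 broad-peak list per library, with a fold enrichment (ratio), a −log10 p, a −log10 q and a score for each peak. The authors' fold ranked peaks within a list, their −log10 q of at least 3 served as a stricter threshold, and score and −log10 p were not used. Drosophila spike-in chromatin is named in the labels' protocols, and these values are not scaled to it. Depth is unknown, so no counting interval is given. The labels name no batch. KO lines follow the labels; names inside the lists call the same libraries replicates 1 and 2.

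Overlapping or touching peaks of a library were merged (chromosomes 1 to 19, X, Y), and cover was computed for 19304 protein-coding RefSeq genes of at least 2 kb. Genes with a mean wild-type cover of at least 5% (9514) were tested with limma 3.58.1 (R 4.3.3; trend and robust settings) in a model of 5 wild-type groups, with Benjamini-Hochberg adjustment and a threshold of 0.05. KO and wild-type libraries were compared by exact permutation within condition (Python 3.11.15, numpy 2.4.6). Simulated data were used to check the limma fit, and the share of changes recovered stands beside the day 5 comparison. All members are named; other genes named are the network partners, the SIX-factor targets, neighbours, and the 3 genes most like each tested member. The members and lists were chosen with earlier results of these data known. Alternatives were a stricter q, lists shortened to 1 common length by fold, centring, no filter, unshared bases, fewer libraries, a replicate block, and leaving out each replicate or KO line.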

Additional observations from a re-analysis of the deposited data

Results flagged for a closer look

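For the difference between restriction at day 5 and at day 1, limma called 3 of the 10 tested partner and target genes, against 5.2% of all tested genes. Of these, Ckm and Myog need the limits given here, so nothing is read from the count. For Tle2 the difference, day 5 less day 1, was 37.54 ± 6.57 points (adjusted p = 0.0140), for Ckm -60.5 ± 7.61 points (adjusted p = 0.00348) and for Myog -20.71 ± 4.47 points (adjusted p = 0.0356). Ckm entered the test only through day 5 control, one of the groups compared (mean cover 15.8% with and 2.32% without it), so its value is partly built into its selection. Myog was at 0 in all 4 restricted libraries, so its value is the gain of the control libraries from day 1 to day 5 and shows no change in the effect of restriction; with centring it was -19.22 points and did not pass (adjusted p = 0.0696).

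Some members moved one way in a KO line and the other way in wild-type cells. These differences were not tested, since a KO line had 1 library per condition, and several changes span less than 2 points of cover. With restriction, Eya1 changed in KO line 1 by -0.81 points at day 1 (wild type 4.61) and by -1.14 points at day 5 (wild type 2.73). The restricted day 1 list of that line held 791 peaks over 0.307 Mb, and every member was at 0 in it. A fall there was thus fixed in advance for any member covered in the control library. At day 5 its lists were 74.1 Mb long in control medium and 45.8 Mb under restriction. With restriction at day 5, Eya4 changed by 0.389 points in KO line 1 and 0.104 points in KO line 2 (wild type -4.01). In control medium, Eya4 changed by 0.106 points from day 0 to day 1 in KO line 1 (wild type -3.80), and Eya1 by 0.531 points from day 1 to day 5 (wild type -2.93). From day 0 to day 5, cover of Six4 went from 12.3% to 50.9% in KO line 1, a change of 38.66 points, and by -4.54 points in wild type; the list of that line lengthened from 17.7 to 74.1 Mb over the same days, and the part of that in the change was not tested.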

How the results depend on the processing

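Of 28 member results, 10 passed the test. Of the 6 of these between wild-type groups, the Six4 difference at day 1 passed under every alternative run (-51.5 to -28.06 points). The other 4 are the differences between KO and wild type; genes were selected by wild-type cover, so their passing says nothing about stability. Of 446 alternative values 19 changed sign.

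Members called numbered 1 for restriction at day 1, against 38.3% of all tested genes, and 4 with centring. At day 5 they numbered 1, against 45.8%, and 2 with centring or only the libraries compared. The counts over all genes with centring stand below. They numbered 1 from day 0 to day 1, against 5.67% of all genes with less cover and 0.967% with more. That was 0 with the stricter q, shortened lists, centring or only the libraries compared. From day 1 to day 5 they numbered 2, against 17.1% with more cover and 5.95% with less. That was 0 with the stricter q or shortened lists and 1 with centring. From day 0 to day 5 they numbered 1, against 15.6% with less cover and 12.2% with more. That was 0 with the stricter q, shortened lists or only the libraries compared, and 2 with centring. Nothing is read from these counts. For KO against wild type 96.6% of all tested genes were called, with Six4 and Eya3 among them, also with the stricter q. Eya1 and Eya4 are not counted, since wild-type libraries alone carried them past the filter. The stricter q and the shortened lists left only Six4 and Eya3 to test.

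Signs turned as follows. With the stricter q, Eya3 gave 6.67 points for restriction at day 1 and Six4 2.86 from day 0 to day 1. With shortened lists, Eya3 gave 6.31 (restriction day 1), 9.26 (restriction day 5), 0.733 (day 0 to 1) and 2.95 (difference between days), and Six4 4.85 (day 0 to 1), 4.39 (day 0 to 5) and -0.46 (difference between days). With centring, Eya3 gave 11.35 and 6.0 for restriction at days 1 and 5, Eya4 12.67 (restriction day 5) and 4.68 (day 0 to 1), and Six4 7.96 (day 0 to 1). Leaving out each replicate, the restriction difference at day 1 ranged over -0.74 to 1.71 for Eya4 (below 0 without replicate 1 of day 1 control, -0.09, or of restricted day 1) and -9.82 to 2.15 for Eya3 (above 0 without replicate 2 of restricted day 1), and that of Six4 from day 0 to day 1 over -3.42 to 2.38 (above 0 without replicate 2 of day 0, 0.191, or replicate 1 of day 1 control). Only Eya3 at day 1 and Eya4 at day 5, both with centring, passed the test with the turned sign (limma adjusted p = 0.0191 and 0.00190). The median that centring removes is itself lower under restriction, so the restriction difference of every gene rises by the same amount by construction.

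Over all tested genes, centring turned the split of higher and lower calls from 226 and 3422 to 3518 and 1245 at day 1, and from 411 and 3945 to 3757 and 1395 at day 5. Same-numbered replicates share only a number, since their deviations correlated by -0.439 to 0.0614 over 10 pairs of groups; with the replicate number as a block, 1, 1, 1, 2, 1 and 0 members were called in the 6 wild-type comparisons, as without it. A block was not possible for KO against wild type, where both KO lines carry replicate number 1. The number of members at 50% cover or more averaged 1.6 per wild-type library (2 at 25% and 0.5 at 75%). Peak lists carry no depth, so a short list cannot be told apart from a shallow library.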
